A study of Mus musculus with 6 samples.

Results

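The genes that encode the subunits of nuclear RNA polymerases I, II and III and their general transcription factors were followed in mouse L929 fibroblasts. They are the 74 protein-coding genes of the 54532 in the count table whose symbols begin with Polr1, Polr2 or Polr3, with Gtf2 or Gtf3, or with Taf and a number. L929 is an established fibroblast line, labelled wild type, and is widely used to study killing by tumour necrosis factor. Control cells (3 libraries) were compared with cells given 10 ng/ml TNF-α and 1 µg/ml actinomycin D for 12 hours (3 libraries). The treatment field of the controls reads Control and says no more, and the protocol text is the same for all 6 samples. No group received either agent alone, so each difference belongs to the combination. No label states that the 3 libraries of a group came from separate cultures, so the spread behind each p-value may be technical.

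Polymerase I makes the long ribosomal RNA precursor, polymerase II makes messenger RNA, and polymerase III makes transfer RNA, the smallest ribosomal RNA and other short transcripts. Each enzyme has a pair of large subunits that form the active centre, a set of smaller subunits of its own, and small subunits held in common with the other enzymes. Promoter factors bring each enzyme to its start sites: SL1 for polymerase I and TFIID with TFIIA, TFIIB, TFIIE, TFIIF and TFIIH for polymerase II. For polymerase III they are TFIIIA and TFIIIC together with the initiation factor TFIIIB. Actinomycin D binds DNA and stops elongating polymerases, and the ribosomal genes are known to be the most sensitive.

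Library totals ran from 16056207 to 18036322 counts, and the 74 genes together took 0.465% to 0.470% of counts in controls and 0.256% to 0.272% in treated libraries. Treated replicate 1 had the fewest genes with a count (15705, against 17688 and 18849 in treated replicates 2 and 3 and 19219 to 20116 in controls). Of 11 fibroblast markers 10 were tested, with a summed level of 6760 to 8739 CPM in controls and 21186 to 24657 CPM in treated libraries, most of it from Vim, collagens, Sparc and Fn1. Of the 10, 8 rose, while the receptors Pdgfra and Pdgfrb fell (−1.61 and −0.93), and Thy1 was at 6 and 0 counts. The 5 macrophage markers summed to 2.17 to 2.77 and 23.5 to 31.0 CPM. The lysosomal gene Cd68 gave 1.85 and 25.7 CPM of it on average and Csf1r 0.663 and 0.932 CPM, with Ptprc, Adgre1 and Itgam at 0 to 1 counts per group. Epithelial and endothelial markers stayed under 1 CPM in sum. The part of the fibroblast marker and Cd68 differences in the results was not tested.

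Transcripts for the large catalytic subunits of all 3 enzymes, and for most subunits of the promoter factors SL1 and TFIIIC, were lower after treatment. On the TMM scale, transcripts for 4 of the 5 small subunits that all enzymes share were higher. Size went with direction outside this family too. Over all tested protein-coding genes the median log2 change was 1.29 with up to 600 coding bases and −1.30 with more than 2400. Of the 74 genes 72 had enough counts to be tested, and 21 were higher (29.2%, where 34.6% of all 13290 tested genes were) and 36 lower (50%, against 40.2% of all tested genes) at an adjusted p of 0.05 (edgeR, quasi-likelihood, adjusted by Benjamini-Hochberg over all tested genes). These shares lie near the background, and the number of changed genes is therefore no result about the family. What varied was the direction by role and size. The changes spanned −4.08 to 2.84 on the log2 scale, with a median of −0.56 against −0.18 over all tested genes. At least 8-fold falls were found for 10 of the 72 genes (13.9%, against 6.35% of all tested genes). Control and treated libraries did not overlap for 22 genes that lay higher and 38 that lay lower (35.9% and 42% of all tested genes). All directions are relative to the TMM scale, which sets library factors from a trimmed mean of gene ratios, and levels are given as CPM, a gene's share of the library's scaled counts. By library size alone, which lowers the median gene by 1.04, 11 were higher and 52 lower (17.1% and 59.6% of all tested genes), and all 36 falls were still called. With ribosomal protein genes held equal (the ribosomal protein scale), which lowers it by 2.39, 0 were called higher and 66 lower (1.82% and 82.5% of all tested genes), and 20 of the 21 rises became negative, all except Taf7l. In bulk RNA fewer cells of a type and less RNA per cell cannot be told apart, and RNA per cell was not measured.

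**Figure D1:**
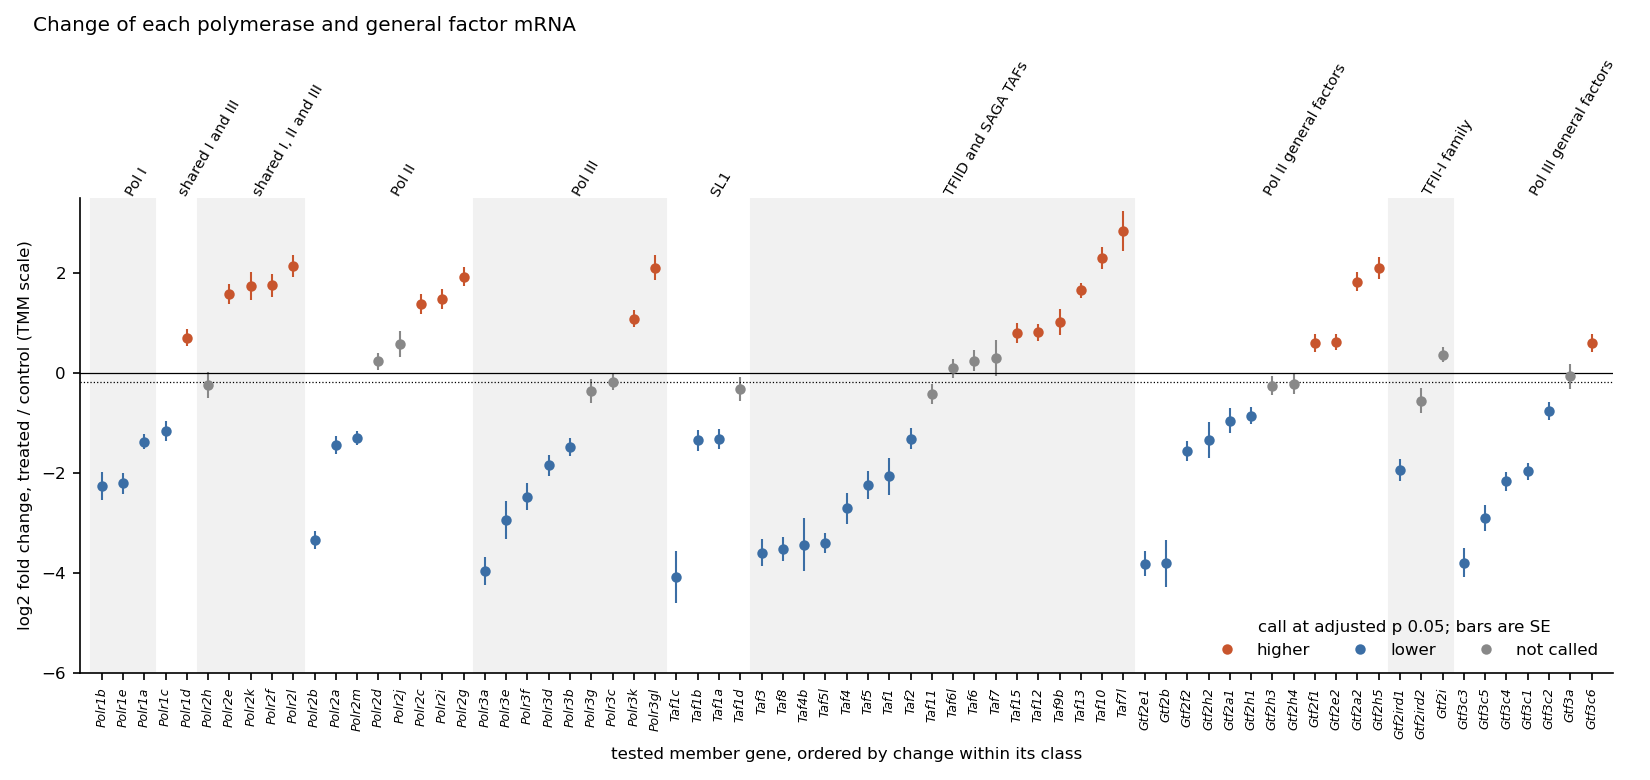
Log2 fold change (treated over control, TMM scale) with its SE for the tested genes named in the plot, ordered by change within each class; colour gives the call at an adjusted p of 0.05 and the dotted line the median of all tested genes. The 3 genes named for polymerase I alone (Polr1a, Polr1b and Polr1e) lie below 0 and 4 of the 5 subunits shared by all enzymes lie above 1.

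The sequence around the transcription start is shown for 6 genes that carry the opposite movements of the results: 4 that fell (Polr1a and Polr2a, the largest subunits of polymerases I and II, Taf1c of SL1 and Gtf2e1 of TFIIE) and 2 of the largest rises (Polr2l, a subunit shared by all enzymes, and Gtf2h5, the smallest subunit of TFIIH). Each runs 5′ to 3′ on the gene's strand from 250 bases before to 50 bases after the RefSeq start (GRCm38.p6), and capitals mark matches on either strand to the TATA box letters TATAAA, the CCAAT box, the SP1 letters GGGCGG, the ETS letters CCGGAAG, the E-box letters CACGTG, the YY1 letters AAGATGGC, or the NRF1 site.
Polr1a (chr6:71908803-71909102, plus strand): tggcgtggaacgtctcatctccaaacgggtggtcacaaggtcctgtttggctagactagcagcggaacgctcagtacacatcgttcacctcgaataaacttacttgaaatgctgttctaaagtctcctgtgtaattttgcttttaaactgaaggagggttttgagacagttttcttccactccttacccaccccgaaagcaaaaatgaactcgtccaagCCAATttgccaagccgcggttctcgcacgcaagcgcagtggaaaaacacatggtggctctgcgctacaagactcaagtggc
Polr2a (chr11:69758584-69758883, minus strand): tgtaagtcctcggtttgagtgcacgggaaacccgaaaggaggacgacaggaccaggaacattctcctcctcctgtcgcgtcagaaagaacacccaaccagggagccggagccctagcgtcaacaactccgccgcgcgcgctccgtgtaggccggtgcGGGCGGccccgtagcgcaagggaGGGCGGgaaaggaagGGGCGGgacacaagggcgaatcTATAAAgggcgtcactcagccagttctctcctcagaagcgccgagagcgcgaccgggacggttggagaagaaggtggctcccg
Taf1c (chr8:119605157-119605456, minus strand): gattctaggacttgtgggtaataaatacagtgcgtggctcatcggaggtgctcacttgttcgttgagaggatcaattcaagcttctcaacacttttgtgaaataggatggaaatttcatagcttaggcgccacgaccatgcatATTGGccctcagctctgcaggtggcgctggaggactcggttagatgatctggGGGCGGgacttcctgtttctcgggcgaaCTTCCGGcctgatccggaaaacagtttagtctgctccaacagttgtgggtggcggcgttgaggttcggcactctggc
Gtf2e1 (chr16:37539740-37540039, minus strand): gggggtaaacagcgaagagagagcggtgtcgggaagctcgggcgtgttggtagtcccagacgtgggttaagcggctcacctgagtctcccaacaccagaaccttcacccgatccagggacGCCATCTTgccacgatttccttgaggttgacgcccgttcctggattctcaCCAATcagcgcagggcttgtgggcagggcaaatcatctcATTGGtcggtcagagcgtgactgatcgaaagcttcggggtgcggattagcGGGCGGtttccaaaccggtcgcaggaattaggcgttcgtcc
Polr2l (chr7:141475104-141475403, minus strand): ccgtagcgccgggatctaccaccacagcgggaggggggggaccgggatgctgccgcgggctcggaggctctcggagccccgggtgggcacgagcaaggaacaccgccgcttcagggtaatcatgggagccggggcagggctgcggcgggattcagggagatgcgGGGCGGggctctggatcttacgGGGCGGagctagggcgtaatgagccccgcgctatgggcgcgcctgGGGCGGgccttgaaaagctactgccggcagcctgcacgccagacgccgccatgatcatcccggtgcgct
Gtf2h5 (chr17:6079578-6079877, plus strand): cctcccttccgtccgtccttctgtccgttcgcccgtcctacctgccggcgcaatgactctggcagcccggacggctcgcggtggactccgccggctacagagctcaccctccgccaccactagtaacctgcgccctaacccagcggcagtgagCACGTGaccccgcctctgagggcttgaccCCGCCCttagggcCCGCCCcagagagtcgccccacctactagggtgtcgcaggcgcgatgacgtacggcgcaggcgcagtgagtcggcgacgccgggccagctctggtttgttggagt
Of the 74 genes 64 were matched by symbol to this RefSeq table. The start regions of members that rose and of members that fell each had a median of 23 CpG dinucleotides, against 7 over all 32851 start regions in the table. The ETS letters were in 7 of 18 start regions of members that rose and 13 of 31 of those that fell, against 8.86% of all start regions. The SP1 letters were in 8 of 18 and 22 of 31, against 35.7% of all. TATAAA was in 6 of 18 start regions of members that rose, in 2 of 31 of those that fell (Polr2a and Taf5) and in 13.6% of all. CACGTG was in 7 of 18 and 4 of 31, against 7.15% of all. CCAAT was in 6 of 18 and 10 of 31, against 37.4% of all. AAGATGGC was in 2 of 18 and 5 of 31, against 2.75% of all, and the NRF1 site was in 0 of the 64, against 0.971% of all. These are matches of letters, given as a description. The background holds every RefSeq start region, also those of genes not tested here, while each member enters only with the region nearest its deposited start. Start regions of tested genes alone were not counted, so no difference from them is shown.

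Transcripts fell for the 3 genes named for polymerase I alone, Polr1a, Polr1b and Polr1e. Of its subunits under other names, Twistnb and Cd3eap fell (−1.61 and −2.79) and Znrd1 rose (0.72). Polr1a, which encodes the largest subunit with the catalytic centre and lies on chromosome 6 from 71909053 to 71984935 (GRCm38, as for all positions here), was at 110.1, 92.7 and 101 CPM in control replicates 1, 2 and 3 and at 36.03, 38.8 and 42.4 CPM in treated replicates 1, 2 and 3. Its treated libraries were all below its controls and close to each other, and the log2 change was −1.37 ± 0.15 (SE; adjusted p = 1.08e-05). Polr1b, for the other large subunit, went from 74.5, 55.4 and 62.3 to 7.51, 16.2 and 16.6 CPM, with treated replicate 1 well below the other treated libraries, a change of −2.25 ± 0.28 (SE; adjusted p = 3.50e-05). Polr1e, for a subunit of the dissociable initiation module, went from 30.4, 26.9 and 27.6 to 7.33, 5.22 and 5.88 CPM, a change of −2.20 ± 0.21 (SE; adjusted p = 4.03e-06). The falls of Polr1a, Polr1b and Polr1e were kept once the trend of change with deposited gene length was removed. Polr1a, whose gene model of 11871 bases is among the longest, then changed by −0.42. Its coding length is 5151 bases. Tested protein-coding genes in bins with median coding lengths of 4251 and 6607.5 bases had median changes of −1.33 and −1.59, near that of Polr1a.

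Most genes of the promoter factor of polymerase I also fell. SL1 consists of the TATA-binding protein and the factors encoded by Taf1a, Taf1b, Taf1c and Taf1d, and 3 of these 4 fell. Taf1c (chromosome 8 from 119597871 to 119605222) had 413, 322 and 366 counts in controls and 2, 6 and 24 in treated libraries, a change of −4.08 ± 0.52 (SE; adjusted p = 4.43e-05). Treated replicate 3 held most of what remained, and without it the change was −5.41. A share of 16.7% of its exon bases overlaps Dnaaf1 on the other strand, and the sources used here do not state whether counting used strand. Taf1a changed by −1.32 ± 0.20 (SE; adjusted p = 0.000129) and Taf1b by −1.35 ± 0.21 (SE; adjusted p = 0.00015), each with tight treated libraries (6.62, 7.96 and 7.48 CPM for Taf1a and 8.30, 7.16 and 6.34 CPM for Taf1b). Taf1d stood apart, at 49.02, 94.1 and 71.01 CPM in controls and 47.4, 52.95 and 71.2 CPM after treatment, with overlapping groups (adjusted p = 0.253), though it was called lower with no filter and without control replicate 1 (adjusted p = 0.0316 and 0.0452). In the edgeR fit with the length trend removed and a replicate block it was called higher instead (0.46, adjusted p = 0.0254). The log2 ratio of Taf1c to Taf1d within a library, which does not depend on the scaling, went from −1.52, −2.84 and −2.29 to −7.75, −6.53 and −5.25.

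The subunits that polymerases I and III hold in common diverged. Polr1c and Polr1d encode partners that form the assembly platform of both enzymes. Polr1c fell from 87.4, 66.6 and 71.8 to 40.9, 34.1 and 25.6 CPM (log2 change −1.17 ± 0.20, adjusted p = 0.000294), and Polr1d rose from 120.4, 96.6 and 96.8 to 201, 174 and 137 CPM (log2 change 0.71 ± 0.18, adjusted p = 0.00352), a rise that turns negative by library size alone or with ribosomal protein genes held equal and is not called once the length trend is removed. Their log2 count ratio within a library was −0.46, −0.54 and −0.43 in controls and −2.30, −2.35 and −2.42 after treatment. The groups of this ratio did not overlap, and the ratio of Polr1c to Polr1d was 3.69-fold lower in treated libraries.

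The small subunits shared by all 3 enzymes moved the other way. Of 5, 4 rose and 0 fell, with a median of 1.74; on the ribosomal protein scale these 4 are negative, and that of Polr2k is not called by library size alone. Polr2e, for the largest of the shared subunits, rose from 153, 116 and 125 to 452, 439.9 and 288 CPM (log2 change 1.58 ± 0.20, adjusted p = 3.16e-05). Polr2l, which encodes a zinc-binding subunit at the assembly platform, rose from 28.4, 21.7 and 28.8 to 132, 138 and 80.3 CPM (log2 change 2.15 ± 0.22, adjusted p = 8.22e-06). Polr2f, for an acidic subunit at the base of the clamp, changed by 1.76 ± 0.23 (SE; adjusted p = 4.05e-05). Polr2k, for the smallest subunit, went from 20.7, 26.5 and 24.97 to 121, 59.8 and 61.4 CPM (log2 change 1.74 ± 0.27, adjusted p = 0.000191). In Polr2e, Polr2f and Polr2l treated replicate 3 lay below the other treated libraries, and in Polr2k treated replicate 1 was far above them. Polr2h did not share the movement: it was at 32.8, 22.3 and 23.9 CPM in controls and 29.1, 23.7 and 14.7 CPM after treatment, with overlapping groups (adjusted p = 0.435). Once the length trend was removed Polr2e, Polr2f and Polr2l were still called higher (1.05, 1.18 and 1.10), Polr2k was not called (−0.20) and Polr2h was called lower (−1.37). That trend is one of gene model length, so these calls can still follow coding length. Polr2e, Polr2f, Polr2l and Polr2k have 630, 381, 201 and 174 coding bases. Bins of tested protein-coding genes with median coding lengths of 606, 420 and 291 bases had median changes of 0.58, 1.41 and 1.89.

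**Figure D2:**
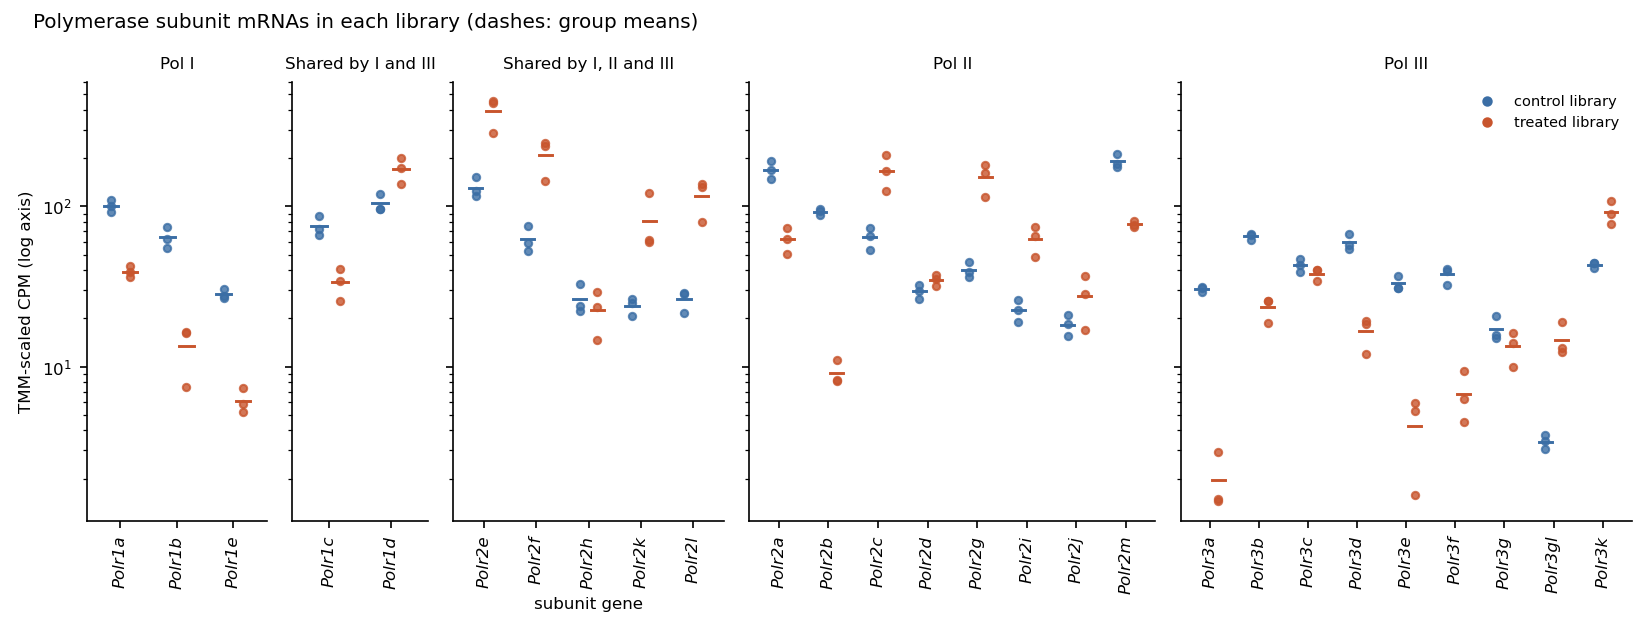
TMM-scaled CPM (log axis) of the named polymerase subunit genes in each of the 3 control and 3 treated libraries, grouped by enzyme; dashes are group means. Polr3a and Polr2b show wide gaps downward, and Polr2e, Polr2f, Polr2k and Polr2l lie higher in all 3 treated libraries.

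Polymerase II was split between its large and its small subunits. Of the 8 genes named for it alone 3 rose, 3 fell and 2 did not pass. Polr2a (chromosome 11 from 69733997 to 69758637), for the largest subunit with the heptad repeat tail, fell from 193, 148 and 169 to 50.7, 62.7 and 73.4 CPM (log2 change −1.45 ± 0.18, adjusted p = 2.50e-05). Polr2b, for the other large subunit of the active centre, fell further, from 88.3, 93.9 and 96.3 to 8.21, 8.13 and 11.1 CPM (log2 change −3.34 ± 0.19, adjusted p = 3.55e-07), and ranked in the lowest 4.24% of changes over all tested genes. Polr2m, for a protein that associates with the enzyme and opposes TFIIF, went from 213, 175 and 184 to 81.2, 77.00 and 73.9 CPM (log2 change −1.30 ± 0.15, adjusted p = 1.20e-05). These falls were kept once the length trend was removed. That trend is one of gene model length. Polr2a has 5910 coding bases, and bins of tested protein-coding genes with median coding lengths of 4251 and 6607.5 bases had median changes of −1.33 and −1.59.

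The rises among polymerase II subunits were in small proteins. Polr2g, which with Polr2d forms the stalk, rose from 44.96, 36.5 and 39.1 to 183, 162 and 115 CPM (log2 change 1.93 ± 0.19, adjusted p = 5.54e-06). Polr2i, for a zinc ribbon subunit at the jaw, rose by 1.48 ± 0.20 (SE; adjusted p = 5.93e-05), and Polr2c, for the partner of Polr2j on the assembly platform, by 1.38 ± 0.20 (SE; adjusted p = 0.000103). On the ribosomal protein scale all 3 are negative, and the Polr2c rise is not called by library size alone. Polr2c shares 18.1% of its exon bases with Dok4, Polr2i 26.8% with Tbcb and Polr2j 15.9% with Lrwd1, each on the other strand. Polr2d, the stalk partner of Polr2g, was at 32.4, 26.4 and 29.7 and 37.1, 35.4 and 31.7 CPM (adjusted p = 0.227), and Polr2j at 21.03, 15.5 and 18.3 and 36.8, 28.5 and 17.02 CPM (adjusted p = 0.0689). Polr2j was called higher by DESeq2 (adjusted p = 0.0298), with median-ratio factors (0.041), with the stricter filter (0.0312) and without treated replicate 3 (0.00315). Both Polr2d and Polr2j have short gene models, and after removal of the length trend they were called lower, at −1.34 and −0.85 on the log2 scale. Polr2g and Polr2i were then no longer called (0.27 and 0.13). Polr2c stayed higher (1.71), with a gene model of 5256 bases for 825 coding bases.

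Polymerase III held the deepest fall of any catalytic subunit. Of its 10 genes 6 fell, 2 rose and 2 did not pass. Polr3a (chromosome 14 from 24448696 to 24487058), for the largest subunit, had 757, 711 and 785 counts in controls and 33, 17 and 19 in treated libraries, or 31.3, 29.1 and 31.02 and 2.91, 1.503 and 1.45 CPM, a log2 change of −3.97 ± 0.29 (SE; adjusted p = 8.60e-07). That is a 15.6-fold lower level, in the lowest 1.99% of changes over all tested genes. Polr3b, for the other large subunit, fell less, from 67.1, 62.1 and 66.8 to 18.7, 25.8 and 25.8 CPM (log2 change −1.48 ± 0.18, adjusted p = 2.10e-05). The paired subunits that act in initiation and termination, encoded by Polr3d and Polr3e, changed by −1.85 ± 0.21 (SE; adjusted p = 1.42e-05) and −2.94 ± 0.38 (SE; adjusted p = 4.56e-05). In Polr3e treated replicate 1 was lowest (1.59, 5.30 and 5.95 CPM against 36.9, 31.1 and 31.1 in controls).

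The subcomplex of Polr3c, Polr3f and Polr3g, which contacts the initiation factor TFIIIB, was uneven. Polr3f fell from 32.4, 40.96 and 39.5 to 6.27, 4.51 and 9.47 CPM (log2 change −2.47 ± 0.27, adjusted p = 9.29e-06), while Polr3c lay at 46.7, 38.7 and 43.1 and 39.9, 39.9 and 34.3 CPM (adjusted p = 0.354). Polr3g and Polr3gl encode alternative versions of the remaining subunit, the former known for its expression in stem and tumour cells and the latter for its wide expression in differentiated tissue. Polr3g had 15.03, 20.8 and 15.8 CPM in controls and 16.3, 9.90 and 13.97 CPM after treatment (adjusted p = 0.195). Polr3gl rose from 3.73, 3.07 and 3.44 to 18.98, 12.99 and 12.3 CPM (log2 change 2.11 ± 0.26, adjusted p = 2.36e-05), though on the ribosomal protein scale its change was −0.31. Per kilobase of gene model Polr3g was at 4.37 ± 0.793 and Polr3gl at 2.14 ± 0.207 CPM in controls (SD, n = 3 libraries), and they were at 3.41 ± 0.827 and 9.24 ± 2.30 after treatment. That order rests on gene models of 3936 and 1597 bases, where the coding lengths are 669 and 654, and by counts Polr3g was above Polr3gl in treated replicate 3 (183 and 161) and below it in the other treated libraries. The log2 count ratio of Polr3g to Polr3gl went from 2.01, 2.75 and 2.19 to −0.22, −0.39 and 0.18, with no overlap between groups. Polr3k, for a small subunit that aids transcript cleavage, rose by 1.09 ± 0.16 (SE; adjusted p = 0.000106). By library size alone Polr3k was not called, and on the ribosomal protein scale its change was negative.

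Set side by side, the largest subunits of polymerases I and II had log2 changes of −1.37 and −1.45 and that of polymerase III a change of −3.97. The log2 count ratio of Polr1a to Polr2a within a library was −0.81, −0.67 and −0.74 in controls and −0.49, −0.69 and −0.79 after treatment. These overlap, with a difference of 0.082 (exact two-sided permutation p = 0.6, adjusted p = 0.65). The ratio of Polr2a to Polr3a went from 2.62, 2.35 and 2.44 to 4.10, 5.34 and 5.63, and that of Polr1a to Polr3a from 1.81, 1.67 and 1.70 to 3.61, 4.65 and 4.83. For the other large subunits the order was different: Polr2b fell most, with a ratio of Polr2b to Polr3b of 0.40, 0.60 and 0.53 in controls and −1.18, −1.66 and −1.22 after treatment, and Polr1b lay between (Polr1b to Polr2b −0.24, −0.76 and −0.63 and −0.13, 0.99 and 0.58, Polr1b to Polr3b 0.15, −0.17 and −0.10 and −1.31, −0.67 and −0.64). Of 13 pairs compared, 11 did not overlap between groups and had an exact permutation p of 0.1, the smallest that 3 against 3 libraries allow, or 0.118 after adjustment over the pairs, so none can pass 0.05. Lack of overlap was common: for single genes 35.9% of all tested lay higher and 42% lower. Other pairs were not counted, and the 13 were chosen with earlier results of these data known. Within these ratios no scaling enters, so unequal change between subunits of an enzyme does not rest on the choice of scale.

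**Figure D3:**
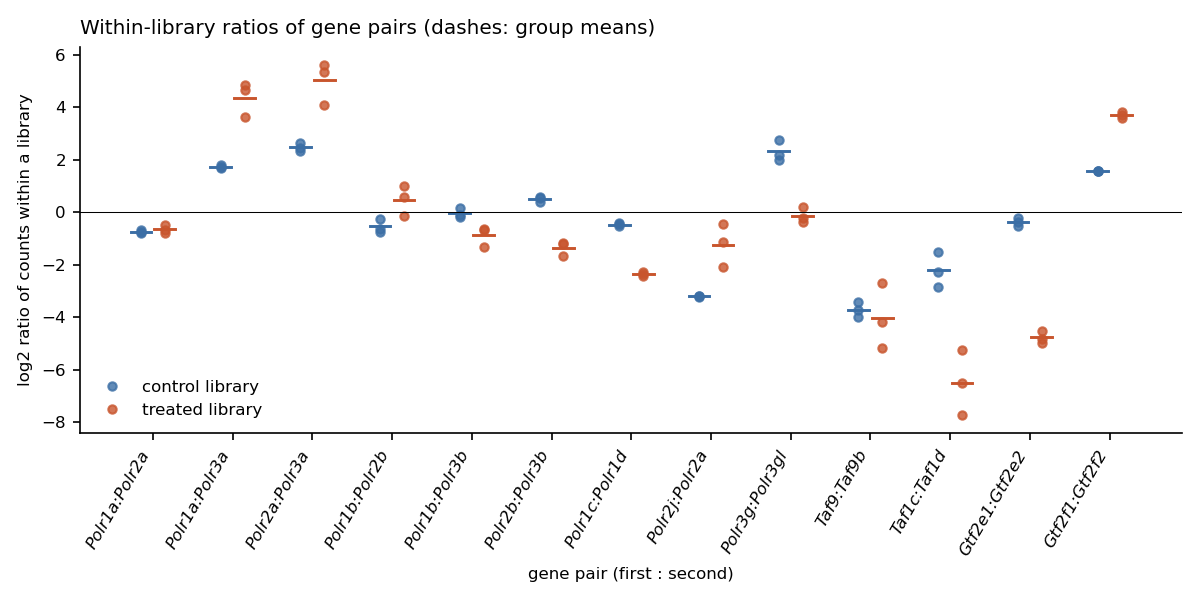
Log2 ratio of the counts of 2 genes within each library (first over second gene, 0.5 added to each count) for 13 pairs, with 3 control and 3 treated libraries and dashes at group means. Polr1a:Polr2a and Taf9:Taf9b overlap between groups, and the other pairs do not.

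The mRNA levels of subunits within each enzyme were spread more widely after treatment. Levels are here CPM per kilobase of the deposited gene length, which is that of the merged gene model and can exceed the mRNA (5256 bases for Polr2c, with a coding length of 825). For the 12 subunits of polymerase II, including the shared ones, the SD over subunits of the log2 level was 0.63, 0.71 and 0.63 in controls and 2.04, 1.93 and 1.70 in treated libraries. The highest subunit was 3.76 to 4.26 times the lowest in controls (Polr2e over Polr2c) and 55.9 to 119.6 times after treatment (Polr2g over Polr2b). For the 10 subunits of polymerase I that the name rule covers the SD went from 0.96, 0.99 and 0.95 to 2.72, 2.50 and 2.25, and for the 17 of polymerase III, counting both Polr3g and Polr3gl, from 1.33, 1.22 and 1.25 to 2.81, 2.71 and 2.39. In each enzyme all treated libraries were above all controls and treated replicate 3 was the lowest of the treated. No test was made over subunits, which are not replicates. Shared subunits are counted in each enzyme that holds them, so the enzymes are not separate observations. The spread over other sets of genes was not computed.

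**Figure D4:**
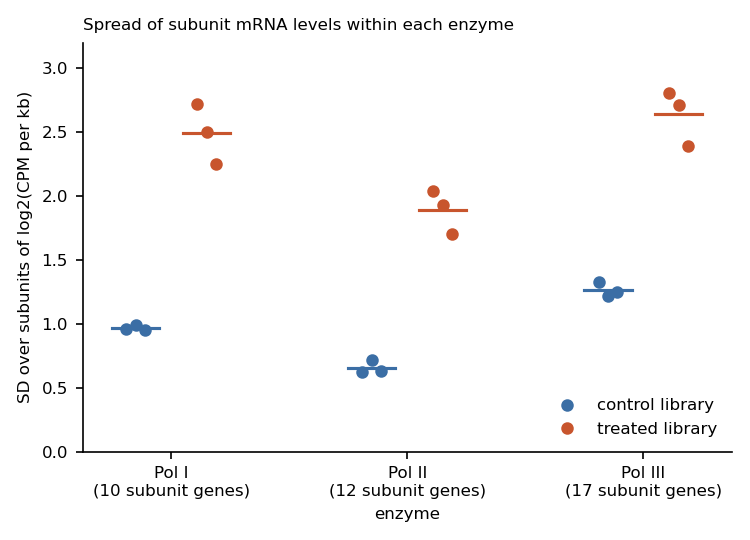
SD over subunit genes of the log2 level (CPM per kilobase) within each enzyme, for each control and treated library; dashes are group means. The 3 treated libraries lie above the 3 controls in polymerases I, II and III.

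As classes, subunits were set against the median log2 CPM of all tested genes in the same library. The median subunit of polymerase I lay 1.75 ± 0.20 above it in controls and 0.22 ± 0.59 above it after treatment (SD, n = 3 libraries). This is a shift of −1.53. For polymerase II subunits the values were 1.42 ± 0.17 and 2.50 ± 0.14 (shift 1.08), for polymerase III 1.10 ± 0.027 and 0.52 ± 0.30 (shift −0.58), and for the subunits shared by all 0.64 ± 0.14 and 3.37 ± 0.53 (shift 2.74). The polymerase II shift was 0.14 once the length trend was removed and 0.055 with no filter, which changes the reference median. The reference median over all tested genes lay lower in treated libraries than in controls, which raises every class shift. Different genes can also hold a median in each library, so a shift can exceed every gene's change. That of the shared subunits, 2.74, lies above their largest change, 2.15 in Polr2l. The median log2 changes of the same 4 classes were −2.20, 0.41, −1.02 and 1.74. Less the median change of all tested genes they were −2.03, 0.58, −0.84 and 1.92. With the length trend removed the class medians were −1.83, −0.85, −0.75 and 1.05. The median of polymerase II subunits thus changes sign and those of the other 3 classes do not. The trend removed is one of deposited gene length, so a kept sign can still follow coding length.

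TFIID, the complex of the TATA-binding protein and its associated factors (TAFs) that recognises core promoters, fell in its large scaffold TAFs while several small histone-fold TAFs rose on the TMM scale. Of 18 tested TAFs of TFIID and the related coactivator SAGA, 8 fell, 6 rose and 4 did not pass. Taf1, for the largest TAF, fell from 21.3, 47.01 and 34.1 to 4.94, 6.90 and 12.4 CPM (log2 change −2.07 ± 0.37, adjusted p = 0.000499), with uneven controls. Taf2, which contacts the initiator, changed by −1.31 ± 0.20 (SE; adjusted p = 0.000146) and Taf5, the WD40 scaffold, by −2.24 ± 0.28 (SE; adjusted p = 2.43e-05). Taf3, whose product reads methylated histone H3, fell from 15.98, 17.3 and 15.02 to 1.68, 1.238 and 1.07 CPM (log2 change −3.60 ± 0.27, adjusted p = 1.05e-06). Taf8 went from 22.7, 20.6 and 21.5 to 1.85, 2.21 and 1.60 CPM (log2 change −3.52 ± 0.24, adjusted p = 7.04e-07), with tight libraries in both groups. Taf5l, the counterpart of Taf5 in SAGA, changed by −3.41 ± 0.20 (SE; adjusted p = 4.25e-07). Taf4, a scaffold that binds activators, changed by −2.71 ± 0.32 (SE; adjusted p = 2.07e-05), and its relative Taf4b, at 149, 201 and 227 counts in controls and 8, 1 and 17 after treatment, by −3.43 ± 0.53 (SE; adjusted p = 0.000146), or −4.32 without treated replicate 3.

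Histone-fold partners in TFIID did not move together. Taf10, the partner of Taf8 and Taf3, rose from 104, 74.8 and 80.5 to 501, 479.6 and 304 CPM (log2 change 2.31 ± 0.22, adjusted p = 4.61e-06) where both partners fell. A share of 45.9% of its exon bases overlaps Ilk on the other strand, whose own change was 1.34 ± 0.59 (adjusted p = 0.0609), so that Taf10 is uncertain. Taf12, the partner of Taf4, rose from 32.7, 28.5 and 27.8 to 49.1, 57.1 and 50.1 CPM (log2 change 0.81 ± 0.16, adjusted p = 0.000859). Taf13 rose from 24.3, 27.2 and 23.9 to 77.9, 78.6 and 80.6 CPM (log2 change 1.65 ± 0.15, adjusted p = 3.14e-06), while its partner Taf11 lay at 24.1, 21.1 and 20.4 and 16.2, 19.4 and 13.4 CPM (adjusted p = 0.0773), called lower with no filter and without treated replicate 2 (0.0321 and 0.0207). Taf9b rose from 3.31, 3.47 and 2.85 to 5.47, 7.16 and 6.87 CPM (log2 change 1.02 ± 0.26, adjusted p = 0.00455), and Taf6, which pairs with it, lay at 32.1, 23.8 and 24.97 and 36.6, 23.9 and 35.8 CPM (adjusted p = 0.304). Taf6 shares 26.5% of its exon bases with Ap4m1 on the other strand. With ribosomal protein genes held equal the rises of Taf10, Taf12, Taf13 and Taf9b are negative, and by library size alone so are those of Taf12 and Taf9b.

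The remaining TAFs included the largest rise of the family. Taf7l, a relative of Taf7 known from the male germ line and fat cells, had 26, 22 and 16 counts in controls and 100, 41 and 83 after treatment, a change of 2.84 ± 0.41 (SE; adjusted p = 7.47e-05) at a low level. Its rise is not called with ribosomal protein genes held equal (0.45). Taf7 lay at 3.56, 2.66 and 2.73 and 2.12, 4.86 and 4.05 CPM (adjusted p = 0.451) and Taf6l at 33.1, 23.4 and 27.7 and 32.5, 31.8 and 25.6 CPM (adjusted p = 0.671), the latter called higher once the length trend was removed (0.53). Taf15, an RNA-binding protein that is named as a TAF, rose by 0.80 ± 0.21 (SE; adjusted p = 0.00469), a rise that turns negative by library size alone and is not called once the length trend is removed. Taf9 was too low to be tested, at 7, 6 and 4 counts in controls and 9, 4 and 2 after treatment, and shares 73.8% of its exon bases with Ak6 on the same strand.

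In TFIIE, TFIIF and TFIIA, each encoded by a pair of genes, 1 gene rose and the other fell. TFIIE is built from the products of Gtf2e1 and Gtf2e2. Gtf2e1 fell from 27.6, 22.3 and 24.1 to 1.94, 1.94 and 1.37 CPM (log2 change −3.82 ± 0.25, adjusted p = 5.90e-07), and Gtf2e2 rose from 32.1, 32.01 and 31.5 to 56.1, 45.8 and 44.7 CPM (log2 change 0.62 ± 0.16, adjusted p = 0.00522). Their log2 count ratio went from −0.22, −0.52 and −0.38 to −4.82, −4.53 and −4.98, which is 21.2-fold lower. In TFIIF the larger chain rose, with Gtf2f1 at 103, 80.1 and 87.2 and 144, 157 and 108 CPM (log2 change 0.59 ± 0.18, adjusted p = 0.0101), and the smaller chain fell, with Gtf2f2 at 34.4, 27.3 and 29.4 and 10.1, 11.9 and 9.01 CPM (log2 change −1.56 ± 0.20, adjusted p = 3.37e-05). Leaving out control replicate 2, control replicate 3 or treated replicate 2 ended the Gtf2f1 call (adjusted p = 0.0542, 0.0536 and 0.0713), and with no filter Gtf2e2 was not called (adjusted p = 0.0584). Both Gtf2e2 and Gtf2f1 turn negative by library size alone or once the length trend is removed. In TFIIA Gtf2a1 fell from 12.01, 16.2 and 13.7 to 5.47, 8.40 and 7.79 CPM (log2 change −0.95 ± 0.24, adjusted p = 0.00434), not called once the length trend is removed, and Gtf2a2, for the small chain, rose from 59.1, 47.95 and 49.8 to 235, 169 and 152 CPM (log2 change 1.83 ± 0.19, adjusted p = 7.43e-06), negative with ribosomal protein genes held equal. The germ line relative Gtf2a1l was too low to be tested, at 7, 3 and 8 counts in controls and 9, 13 and 18 after treatment.

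TFIIB, the single-chain factor that links promoter and polymerase, had among the largest falls of the family. Gtf2b had 499, 428 and 475 counts in controls and 3, 16 and 30 in treated libraries, a change of −3.81 ± 0.47 (SE; adjusted p = 3.35e-05), or −4.52 without treated replicate 3, which held most of the treated counts. Among TFIIH core genes Gtf2h1 changed by −0.85 ± 0.17 (SE; adjusted p = 0.000923) and Gtf2h2 by −1.34 ± 0.36 (SE; adjusted p = 0.00598), where the latter was −1.93 without treated replicate 1. Gtf2h3 (22.2, 18.3 and 20.5 and 18.4, 17.7 and 15.04 CPM) and Gtf2h4 (35.2, 24.7 and 30.4 and 28.4, 28.9 and 20.6 CPM) did not pass (adjusted p = 0.236 and 0.362). Gtf2h5, for the smallest subunit, rose from 50.3, 40.1 and 40.8 to 241, 188 and 132 CPM (log2 change 2.09 ± 0.22, adjusted p = 8.65e-06). Its change was 2.07 with the trend of deposited gene length removed and −0.36 with ribosomal protein genes held equal. Its gene model has 3855 bases and its coding part 213, so the former does not remove a trend with coding length. In all, 6 of the 12 tested general factors of polymerase II fell, 4 rose and 2 did not pass.

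The TFII-I family, which shares the Gtf2 name but acts as sequence-specific regulators, had 1 fall among 3 genes. Gtf2ird1 fell from 39.8, 31.1 and 37.3 to 7.24, 10.5 and 10.4 CPM (log2 change −1.94 ± 0.21, adjusted p = 1.07e-05). Gtf2i lay at 141, 108 and 116 and 143, 173 and 155 CPM, with no overlap but an adjusted p of 0.0504, and was called higher by DESeq2 (0.49), by limma-voom (0.37) and with the length offset (1.21), but lower by library size alone (−0.67). Gtf2ird2 lay at 15.4, 11.4 and 13.3 and 6.62, 11.2 and 9.39 CPM (adjusted p = 0.0631). The fits with no filter, by limma-voom and without treated replicate 2 called Gtf2ird2 lower (adjusted p = 0.0184, 0.0478 and 0.0185). The 3 genes are neighbours on chromosome 5.

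TFIIIC, which recognises the internal promoters of transfer RNA genes, fell in 5 of its 6 subunits. Gtf3c3 fell furthest, from 19.5, 26.2 and 22.96 to 1.06, 1.77 and 2.06 CPM (log2 change −3.80 ± 0.29, adjusted p = 1.07e-06). Gtf3c5 fell from 77.7, 58.6 and 63.5 to 7.68, 12.6 and 6.49 CPM (log2 change −2.90 ± 0.26, adjusted p = 2.87e-06), Gtf3c4 changed by −2.17 ± 0.19 (SE; adjusted p = 2.12e-06) and Gtf3c1, for the largest subunit, by −1.97 ± 0.18 (SE; adjusted p = 2.73e-06). Gtf3c2 changed by −0.76 ± 0.18 (SE; adjusted p = 0.00233), a call that was lost with the length trend removed, and shares 38.9% of its exon bases with Gm29609. Gtf3c6, the smallest subunit, rose from 26.2, 30.6 and 27.7 to 36.2, 45.5 and 46.5 CPM (log2 change 0.60 ± 0.17, adjusted p = 0.00851), negative by library size alone. It was not called once the length trend was removed (adjusted p = 0.532), with no filter (0.0743), or without control replicate 3 or treated replicate 2 (0.0563 and 0.0619). Gtf3a, for the zinc finger factor TFIIIA of the smallest ribosomal RNA gene, lay at 44.1, 34.7 and 37.1 and 52.98, 31.7 and 26.1 CPM (adjusted p = 0.824), and 59.1% of its exon bases overlap Mtif3 on the other strand. It was called lower without treated replicate 1 (−0.49, adjusted p = 0.0249) and once the length trend was removed (−0.66, adjusted p = 0.0364).

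Across the 72 tested genes the change followed coding length, taken from the principal GENCODE transcript. Spearman's correlation between the 2 was −0.67 over these 72 genes and −0.40 over 11450 tested protein-coding genes, as a description, since all genes share the same libraries and depth. Of 14 genes with up to 600 coding bases 11 rose, 0 fell and 3 did not pass (median 1.57, against 1.29 for all tested genes of that length). Of 20 genes with more than 2400 coding bases 18 fell, 0 rose and 2 did not pass (median −2.12, against −1.30). The medians of all tested genes ran the same way, so the split is no trait of this family alone. Calls over all genes were not counted by length. Genes that rose had a median of 516 coding bases and 6 exons, and genes that fell 2266 coding bases and 15 exons. The same coefficient was −0.50 with the deposited gene length, −0.47 with exon number and −0.54 with genomic span. Among genes off this trend were Gtf2b, Polr3f and Taf8, which fell with 948, 948 and 924 coding bases, and Taf7l, Gtf2f1 and Taf15, which rose with 1413, 1524 and 1671. After removal of the trend with deposited gene length 13 of 21 rises and 33 of 36 falls were kept, and 15 and 37 genes were called in all (28.9% and 39.5% of all tested genes). That trend is not one of coding length, so a call kept after its removal can still follow coding length. Gtf2a2 and Taf10, for example, have gene models of 4047 and 4584 bases and coding lengths of 327 and 654. Shares of exon bases of at least 10% with another gene were found for 9 of the 74, and without them 18 were higher and 34 lower.

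**Figure D5:**
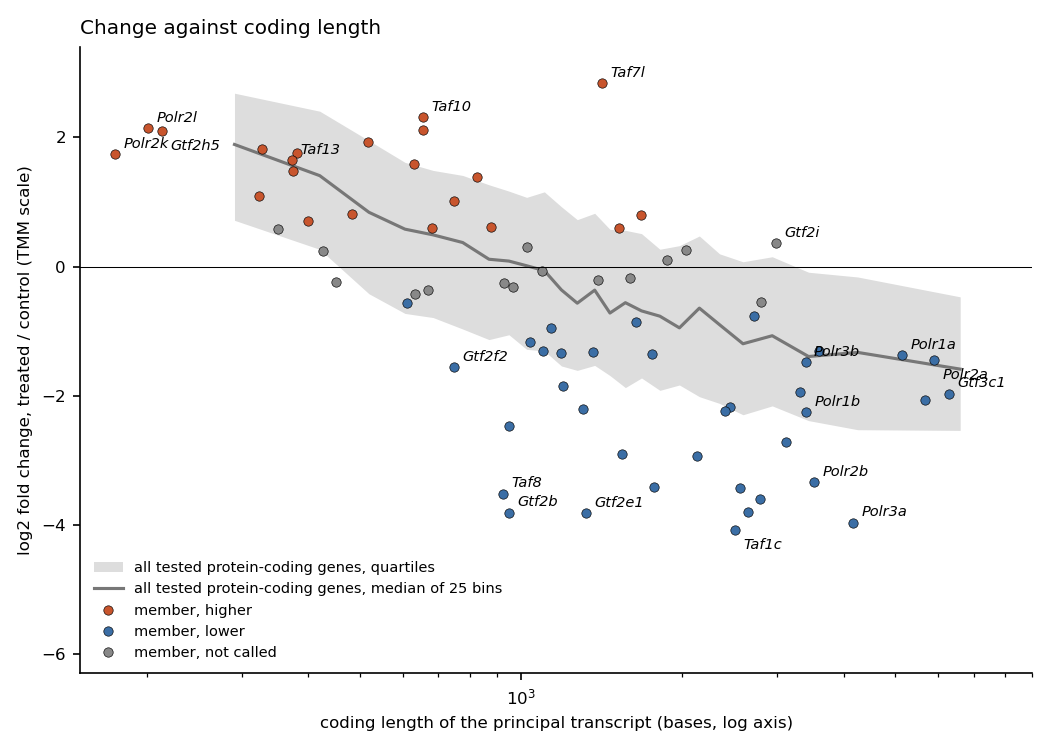
Log2 fold change against coding length (bases, log axis) for the 72 tested genes, coloured by call, over the median and quartiles of 11450 tested protein-coding genes in 25 bins of length. Members with up to 600 coding bases lie mostly above 0 and those beyond 2400 mostly below.

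Partners of these factors that the name rule leaves out were described from a list of 37 genes, all of them tested: 26 fell, 7 rose and 4 did not pass, with a median of −1.38. Over all tested genes 40.2% were lower and 34.6% higher, with a median of −0.18. The 3 polymerase I factors (UBF, the initiation factor of Rrn3 and the termination factor Ttf1) all fell, from −1.20 to −3.02. Of the TATA-binding protein and its regulators 4 of 5 fell, and of the 9 polymerase III factors of TFIIIB and SNAPc with the repressor Maf1, 6 fell, 1 rose and 2 did not pass. Of the 4 subunits of polymerases I and III that carry other names, 2 fell (Twistnb and Cd3eap) and 2 rose (Znrd1 and Crcp). Of the other 5 TFIIH genes 3 fell and 1 rose. Of 5 genes of mitochondrial transcription, including the mitochondrial polymerase, 4 fell and 0 rose, and of 6 polymerase assembly factors 4 fell and 2 rose. These calls are on the TMM scale, and other scalings were not run for this list.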

How the data were processed

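RNA sequencing of 3 control and 3 treated L929 libraries was used as deposited. Whole-number counts per Ensembl gene, with gene lengths of type other in bases, are the authors' per the file headers. Per the submitters' processing notes the tools include DESeq2 1.24.0, HISAT2 2.1.0 and RSEM 1.3.1, and the genome is mm10 (GRCm38); no roles are stated. Strand use and the handling of shared reads are not given in the sources used here. The deposited FPKM values are the authors' and carry a library factor beyond the library total. Columns were matched to samples by treatment and number.

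Genes kept by filterByExpr (13290 of 24708 with a count) were scaled by TMM and tested with edgeR 4.0.16 (quasi-likelihood, robust) in R 4.3.3, with Benjamini-Hochberg adjustment over all tested genes and a threshold of 0.05. The prior count for log2 CPM was 2. An SE is the log2 change divided by the root of F. Pair ratios add 0.5 to each count and use an exact two-sided permutation test. The length trend is a lowess fit (span 0.3) of log2 change on log2 gene length, entered as an offset. Coding lengths and overlaps are from GENCODE M21, where 70 of the 74 genes have the same coordinates. Every member was to be named, with library values for those the results turn on; 1 gene, which is kept in all counts, is not reported here. Members, lists, classes and pairs were chosen with earlier results of these data known. Alternatives were other scalings, filters, DESeq2 1.42.0, limma-voom (limma 3.58.1), limma on log2(FPKM + 1) and log2(FPKM + 0.1), a replicate block, the length offset and leaving out each library. In a simulation of treated against control libraries (13017 genes) the edgeR test found 48 of 98 genes changed by 1 and 86 of 96 changed by 2 on the log2 scale, with 14 false calls among 148. The share of false calls thus lay above 0.05. Its changes were few and balanced up and down, where 74.8% of tested genes were called in the data, so it does not check the TMM scale.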

Additional observations from a re-analysis of the deposited data

How the results depend on the processing

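By library size alone all genes were 2276 higher and 7924 lower, and members 11 higher and 52 lower; with ribosomal protein genes held equal all genes were 242 higher and 10960 lower, and members 0 higher by edgeR and 66 lower. In that fit only 1 member, Taf7l, was above 0, and it did not pass. Counts of members under the other alternatives stayed within 19 to 23 higher (15 with the length offset, with or without a replicate block) and 35 to 39 lower; without members that share exons, an alternative chosen after seeing the data, they were 18 and 34. Signs turned by library size alone in Gtf2e2 −0.44, Gtf2f1 −0.46, Gtf2i −0.67, Gtf3c6 −0.44, Polr1d −0.35, Polr2d −0.81, Polr2j −0.49, Taf12 −0.23, Taf15 −0.22, Taf6 −0.77, Taf6l −0.95, Taf7 −0.72, Taf9b −0.018. With ribosomal protein genes held equal they turned in Gtf2a2 −0.60, Gtf2e2 −1.80, Gtf2f1 −1.83, Gtf2h5 −0.36, Gtf2i −2.02, Gtf3c6 −1.79, Polr1d −1.72, Polr2c −1.06, Polr2d −2.17, Polr2e −0.86, Polr2f −0.69, Polr2g −0.51, Polr2i −0.95, Polr2j −1.88, Polr2k −0.73, Polr2l −0.30, Polr3gl −0.31, Polr3k −1.34, Taf10 −0.13, Taf12 −1.59, Taf13 −0.75, Taf15 −1.57, Taf6 −2.11, Taf6l −2.31, Taf7 −2.05, Taf9b −1.37. With the length offset they turned in Gtf2e2 −0.082, Gtf2f1 −0.42, Gtf2h3 0.24, Polr2d −1.34, Polr2j −0.85, Polr2k −0.20, Taf1d 0.44, and with the length offset and replicate block in Gtf2e2 −0.089, Gtf2f1 −0.43, Gtf2h3 0.24, Polr2d −1.34, Polr2j −0.90, Polr2k −0.27, Taf1d 0.46. These follow from the construction of each scale or offset. Among members not called, Gtf3a was 0.068 with median-ratio factors, 0.069 with the stricter filter, 0.069 by DESeq2 and −0.49 to 0.097 over the fits without 1 library; Taf6l was −0.066 with no filter and −0.051 to 0.20 without 1 library; Taf7 was −0.018 to 0.50 without 1 library. The cause was not tested.

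Class shifts moved by more than the SD between libraries with no filter (polymerase I −2.56, polymerase II 0.055, polymerase III −1.60, shared subunits 1.71), the stricter filter (polymerase II 0.87), log2(FPKM + 1) (polymerase I −1.08, polymerase II 0.86, polymerase III −0.33, shared subunits 2.07), log2(FPKM + 0.1) (polymerase III −0.36, shared subunits 2.16) and the length offset with or without the replicate block (polymerase II 0.14, polymerase III −0.92, shared subunits 1.64); each filter changes the genes behind the reference median. No pair ratio moved by more than its SD in any alternative, but Taf9 to Taf9b went from −0.31 to −0.96 without treated replicate 1 and turned to 0.27 without treated replicate 3, and Taf1c to Taf1d was −3.67 without treated replicate 1 and −4.92 without treated replicate 3. The replicate numbers are not known to pair the samples: same-numbered deviations correlated at 0.22, −0.14 and 0.029. With the replicate block 22 members were higher and 36 lower, Polr2j being called as well (0.53), and no other call on the TMM scale changed. Depth limits Taf9 and Gtf2a1l, which were not tested, and Taf1c, Gtf2b and Taf4b, whose treated values rest on few counts.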
